A study of Rattus norvegicus with 6 samples.

Results

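The genes described here are 8 transcripts used as landmarks of the CA1 and CA2 pyramidal cell fields of the hippocampus: Wfs1, Fibcd1, Pou3f1 and Mpped1 for CA1, and Rgs14, Pcp4, Amigo2 and Map3k15 for CA2. They were chosen by symbol, as 8 of the 22601 genes in the count table, and all 8 passed the filter on low counts that left 14588 genes for testing. The tissue was ventral hippocampus of male rats of the outbred Sprague Dawley strain, aged 4 months (adult) or 22 months (aged). Each age group held 10 rats that had been through the Morris water maze, a test of spatial learning, and 3 of each were picked at random for sequencing, giving 6 libraries with totals from 12476758 to 15689921 counts. No treatment or genetic change is named for either group, so age is the only labelled difference. The question was whether the transcripts of these fields differed between adult and aged rats.

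The pyramidal cell layer of the hippocampus is divided into fields along its course from the dentate gyrus to the subiculum. CA3 cells project through the Schaffer collaterals to CA1, which is the main output to the subiculum and cortex and is central to spatial and contextual memory. CA2 is a narrow field between them, known for a role in social memory and for synapses that resist the usual forms of long-term potentiation. Each field has its own set of transcripts, and Wfs1 in particular is known to be strongest in the dorsal part of CA1. The fields were not separated before sequencing, and fewer cells of a field and less RNA per cell cannot be told apart in such samples. Pcp4 is also made by cells of the striatum, thalamus and neocortex, so its reads need not come from CA2. Whether the reads of the other genes come only from their own field was not tested either.

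Stretches upstream of 3 of the genes are shown. The levels of Wfs1 and Amigo2 over the 6 libraries, described below in turn, were the most unlike of any pair. Rgs14 lay nearer to each of those than they lay to one another. That holds for every other gene of the 8 too, so it does not single out Rgs14. Each stretch is the 250 bases before the annotated start in RefSeq, build GRCr8, read along the gene's own strand. The positions are chr14:78034955-78035204 (plus strand) for Wfs1, chr7:130273736-130273985 (minus strand) for Amigo2 and chr17:9268234-9268483 (minus strand) for Rgs14. Capitals mark matches, on either strand, to any of 6 motifs searched: the TATA box TATAAA, the CCAAT box CCAAT, the GC box GGGCGG, the octamer ATGCAAAT bound by POU factors such as the product of Pou3f1, the E-box CAGCTG, and TGACG, the core of the cyclic AMP response element.
Wfs1: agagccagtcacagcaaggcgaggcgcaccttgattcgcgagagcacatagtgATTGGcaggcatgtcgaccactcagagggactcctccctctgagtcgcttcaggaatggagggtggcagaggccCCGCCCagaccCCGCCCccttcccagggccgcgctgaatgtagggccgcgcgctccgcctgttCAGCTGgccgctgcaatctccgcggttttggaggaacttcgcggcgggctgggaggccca
Amigo2: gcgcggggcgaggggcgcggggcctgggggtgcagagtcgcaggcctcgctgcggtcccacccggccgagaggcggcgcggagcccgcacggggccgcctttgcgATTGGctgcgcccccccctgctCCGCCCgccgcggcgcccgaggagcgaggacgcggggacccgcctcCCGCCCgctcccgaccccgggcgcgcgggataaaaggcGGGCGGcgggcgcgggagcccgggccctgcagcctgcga
Rgs14: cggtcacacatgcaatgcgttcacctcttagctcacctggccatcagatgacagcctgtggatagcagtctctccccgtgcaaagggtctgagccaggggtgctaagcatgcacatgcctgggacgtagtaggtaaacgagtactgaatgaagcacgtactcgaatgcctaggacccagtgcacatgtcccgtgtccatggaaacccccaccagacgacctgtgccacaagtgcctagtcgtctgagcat
Of the 8 genes, 6 had an entry in the promoter table, and Pou3f1 and Map3k15 had none. The Wfs1 window held 1 CCAAT box, 2 GC boxes and 1 E-box, the Amigo2 window held 1 CCAAT box and 3 GC boxes, and in the Rgs14 window none of the 6 motifs was found. Among 27457 RefSeq promoters of the same length, 34.3% held a CCAAT box, 32.4% a GC box and 11.9% that E-box. The octamer (1.5% of all promoters), the TATA box (13.1%) and TGACG (19.0%) were found in none of the 6 windows. The share of G and C was 66.0% in the Wfs1 window, 82.8% in that of Amigo2 and 55.6% in that of Rgs14, against a median of 52.0% over all promoters. These matches describe the letters of the windows and do not show binding.

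The 8 genes covered a wide range of levels, compared here as FPKM, which divides by gene length and library total and so allows genes to be set beside each other. Pcp4, which encodes the small calmodulin-binding protein PEP-19, was the highest, at 296.1 ± 57.2 FPKM (SD over all 6 libraries), higher than 98.2% of the genes tested. Mpped1, which encodes a protein with a metallophosphoesterase domain, averaged 52.5 ± 13.8 FPKM. Wfs1, which encodes wolframin, a membrane glycoprotein of the endoplasmic reticulum, averaged 52.1 ± 28.3 FPKM, and these neighbours in the order did not separate, with Mpped1 above Wfs1 in 3 of 6 libraries. Rgs14, which encodes a scaffold that holds G protein alpha subunits and Ras family proteins and restrains plasticity in CA2, averaged 31.9 ± 8.82 FPKM and lay below Wfs1 in 5 of 6 libraries, so that pair also overlapped.

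Pou3f1, which encodes a POU-domain transcription factor also called Oct-6 or SCIP, averaged 12.1 ± 5.23 FPKM and lay below Rgs14 in every library. Amigo2, which encodes an adhesion protein with leucine-rich repeats, averaged 7.39 ± 2.09 FPKM and lay below Pou3f1 in 4 of 6 libraries, an overlap within their spread. Map3k15, which encodes the kinase ASK3 at the top of a stress-activated cascade, averaged 0.710 ± 0.176 FPKM. Fibcd1, which encodes a transmembrane receptor for acetylated sugars, was the lowest at 0.330 ± 0.124 FPKM, below all but 3.89% of the genes tested and below Map3k15 in 5 of 6 libraries. Fibcd1 rested on 13 to 38 reads a library and Map3k15 on 31 to 52, while the other 6 genes had at least 225 reads in every library. Most of the reads of the CA1 genes were thus those of Wfs1, Mpped1 and Pou3f1.

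**Figure D1:**
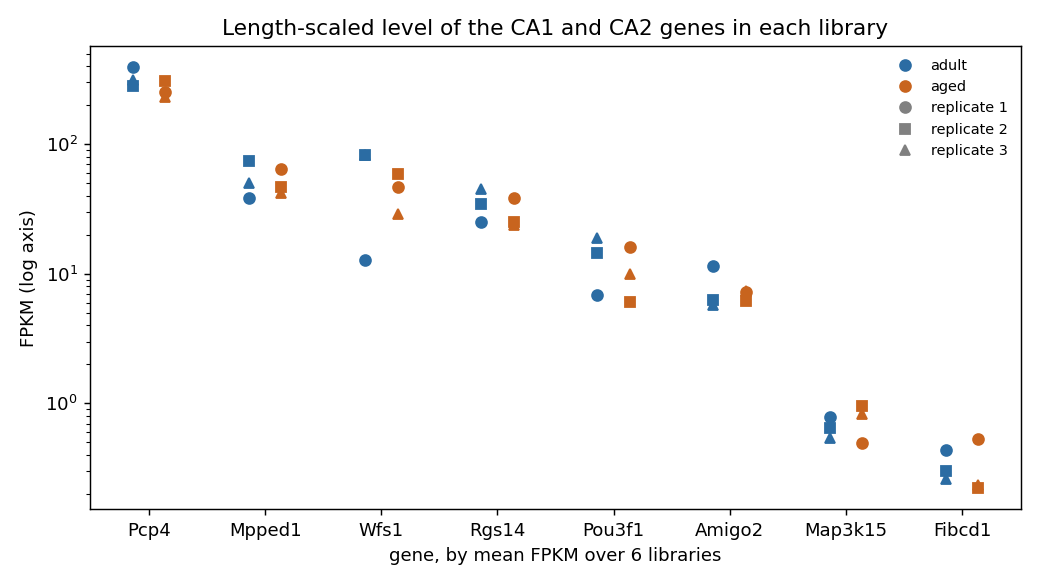
FPKM of the 8 genes on a log axis, ordered by their mean, with 1 point per library (blue adult, orange aged; the shape gives the replicate). Pcp4 stands above the rest in all 6 libraries, Map3k15 and Fibcd1 lie below 1 FPKM, and 1 adult library lies far below the other points of Wfs1.

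Between the ages, 0 of the 8 genes were called (edgeR quasi-likelihood test, Benjamini-Hochberg adjustment over all 14588 genes, adjusted p under 0.05), where 0% of all genes tested were called, and the adjusted p was 1.00 for each. At an unadjusted p under 0.05, 0 of the 8 passed, against 3.45% of all genes, and DESeq2 called 0 of the 8, against 0.213% of the genes it tested. The adult and aged values overlapped for all 8 genes, while they did not overlap for 7.56% of all genes. The fitted value was lower in aged rats for 7 of the 8 and higher for Map3k15, with a median log2 fold change of -0.23. That median was -0.08 without aged replicate 2, -0.09 without adult replicate 3, -0.15 without aged replicate 3 and -0.38 without aged replicate 1, and 5 of the 8 were lower without adult replicate 1 and again without aged replicate 3. Over all genes tested 50.5% were lower and the median was -0.0022. The 8 genes were chosen with earlier results of these data known, and their intervals, given below, reach from falls to rises for each of them.

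Wfs1 showed the widest spread of the 8. It stood at 35.0, 223.7 and 232.9 CPM in adult replicates 1 to 3 and at 131.6, 162.3 and 76.7 CPM in aged replicates 1 to 3 (CPM, counts scaled to library size with TMM factors, as are all CPM values here). Adult replicate 1 was the lowest of all 6 libraries and the other 2 adult libraries were the highest, so the aged libraries all lay inside the adult range. The adult mean was 163.8 ± 111.7 CPM and the aged mean 123.5 ± 43.4 CPM (SD, n = 3). The log2 fold change was -0.41 ± 0.60 (SE), with a 95% interval from -1.79 to 0.97, that is from 0.290 to 1.96 times the adult level.

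Adult replicate 1 was the library whose removal moved the Wfs1 value furthest. Without it the log2 fold change was -0.88 (edgeR unadjusted p = 0.0136, adjusted p = 1.00), with both remaining adult libraries above all 3 aged ones. Over the 6 ways of leaving out 1 library it ran from -0.88 to -0.06. By limma-voom, which averages on the log scale, it was -0.05. The highest adult value was 6.66 times the lowest. Among the 10100 tested genes that averaged 10 CPM or more, the median of this ratio was 1.25 and 0.416% of genes had one at least as large. Within the aged group the ratio for Wfs1 was 2.12, reached by 3.37% of those genes.

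Pou3f1 also varied widely within both ages. It stood at 20.4, 42.7 and 58.1 CPM in adult replicates 1 to 3 and at 48.8, 18.1 and 28.8 CPM in the aged ones. Adult replicate 1 and aged replicate 2 were the low libraries and the ranges of the groups largely overlapped. Its means were 40.4 ± 19.0 and 31.9 ± 15.6 CPM (SD, n = 3), with a log2 fold change of -0.34 ± 0.43 (95% interval -1.33 to 0.65). That value was 0.02 with adult replicate 3 left out and -0.76 with aged replicate 1 left out. The highest value was 2.85 times the lowest in adult and 2.70 times in aged rats.

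Mpped1 stood at 162.8, 311.8 and 217.7 CPM in adult replicates 1 to 3 and at 279.3, 200.9 and 171.2 CPM in the aged ones. Its lowest library was again adult replicate 1, but its highest was adult replicate 2, and the groups overlapped almost wholly. Its log2 fold change was -0.09 ± 0.26 (95% interval -0.69 to 0.52), from means of 230.7 ± 75.4 and 217.1 ± 55.9 CPM. Mpped1 overlaps the noncoding gene LOC120093700 in the GRCr8 annotation. Whether reads were assigned by strand is not given in the sources used here, so reads of that gene may be among its counts.

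Fibcd1 stood at 2.05, 1.39 and 1.27 CPM in adult replicates 1 to 3 and at 2.53, 1.04 and 1.06 CPM in the aged ones. Replicate 1 was the highest library of each age, opposite to Wfs1, Pou3f1 and Mpped1 among the adults. Its counts were low, and the exact Poisson 95% interval was 1.38 to 2.92 CPM in adult replicate 1 and 0.762 to 1.98 CPM in adult replicate 3, which overlap. In the aged group the interval was 1.79 to 3.47 CPM in replicate 1 and 0.556 to 1.79 CPM in replicate 2, which lie end to end and do not overlap. These intervals cover counting error only. Its log2 fold change was -0.02 ± 0.47 (95% interval -1.09 to 1.06).

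**Figure D2:**
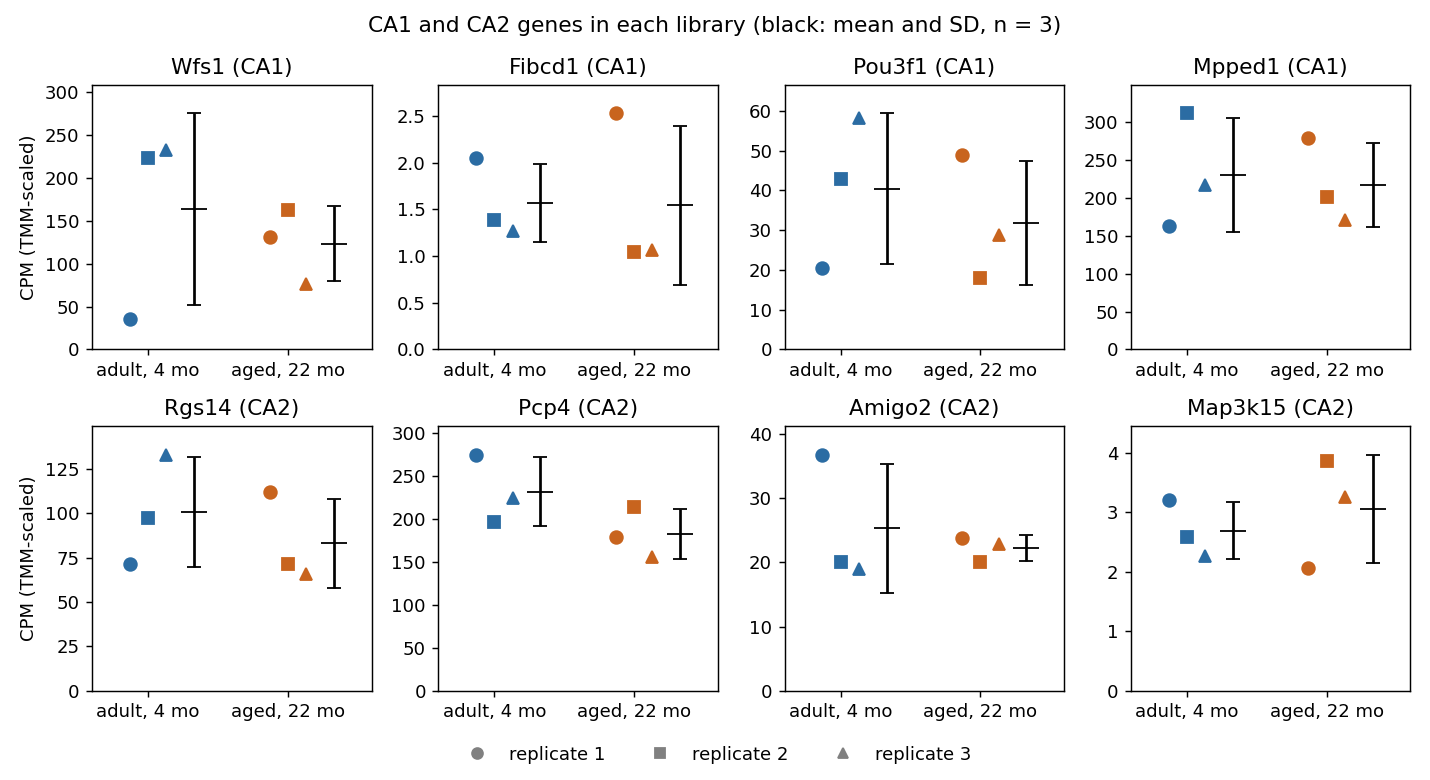
TMM-scaled CPM of each gene in the 6 libraries (blue adult at 4 months, orange aged at 22 months; circle, square and triangle for replicates 1, 2 and 3), with the mean and SD of each age in black (n = 3). In each of the 8 panels the adult and aged points overlap, and adult replicate 1 is the lowest point for Wfs1 and Mpped1 and the highest for Pcp4 and Amigo2.

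Among the CA2 genes, Rgs14 stood at 71.2, 97.1 and 133.0 CPM in adult replicates 1 to 3 and at 111.8, 71.3 and 65.6 CPM in the aged ones. Adult replicate 3 was the highest, and adult replicate 1 lay with aged replicates 2 and 3 at the low end. The means were 100.5 ± 31.0 and 82.9 ± 25.2 CPM (SD, n = 3), with a log2 fold change of -0.28 ± 0.27 (95% interval -0.89 to 0.34). That value was -0.02 with adult replicate 3 left out and -0.53 with aged replicate 1 left out.

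Pcp4 had the smallest error of the 8 genes and the smallest p. It stood at 274.8, 195.8 and 224.5 CPM in adult replicates 1 to 3 and at 179.1, 213.3 and 155.1 CPM in the aged ones. Adult replicate 1 was the highest and aged replicate 3 the lowest, and the groups overlapped only through aged replicate 2, which lay above adult replicate 2. The means were 231.7 ± 40.0 and 182.5 ± 29.2 CPM (SD, n = 3). The log2 fold change was -0.34 ± 0.17 (95% interval -0.74 to 0.05, or 0.599 to 1.04 times the adult level), with an unadjusted p of 0.0789 by edgeR. Without adult replicate 1 it was -0.19, and without aged replicate 2 it was -0.46 (edgeR unadjusted p = 0.0318, adjusted p = 0.966).

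Amigo2 stood at 36.8, 20.0 and 19.0 CPM in adult replicates 1 to 3 and at 23.8, 20.0 and 22.9 CPM in the aged ones. Adult replicate 1 stood apart at the top and the other 5 libraries lay close together. The log2 fold change was -0.18 ± 0.26 (95% interval -0.78 to 0.41), and without adult replicate 1 it was 0.20, the opposite direction. Amigo2 overlaps the protein-coding gene Pced1b in the GRCr8 annotation, so its counts are uncertain where strand was not used.

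Map3k15 stood at 3.21, 2.59 and 2.27 CPM in adult replicates 1 to 3 and at 2.06, 3.86 and 3.25 CPM in the aged ones. Both extremes were aged libraries. It was the one gene of the 8 with a higher fitted value in aged rats, at a log2 fold change of 0.18 ± 0.34 (95% interval -0.61 to 0.97), which became -0.0043 without aged replicate 2. Map3k15 overlaps Pdha1, which encodes a subunit of pyruvate dehydrogenase, and the pseudogene Ubl4a-ps1 in the GRCr8 annotation. Its low counts are therefore also uncertain where strand was not used.

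**Figure D3:**
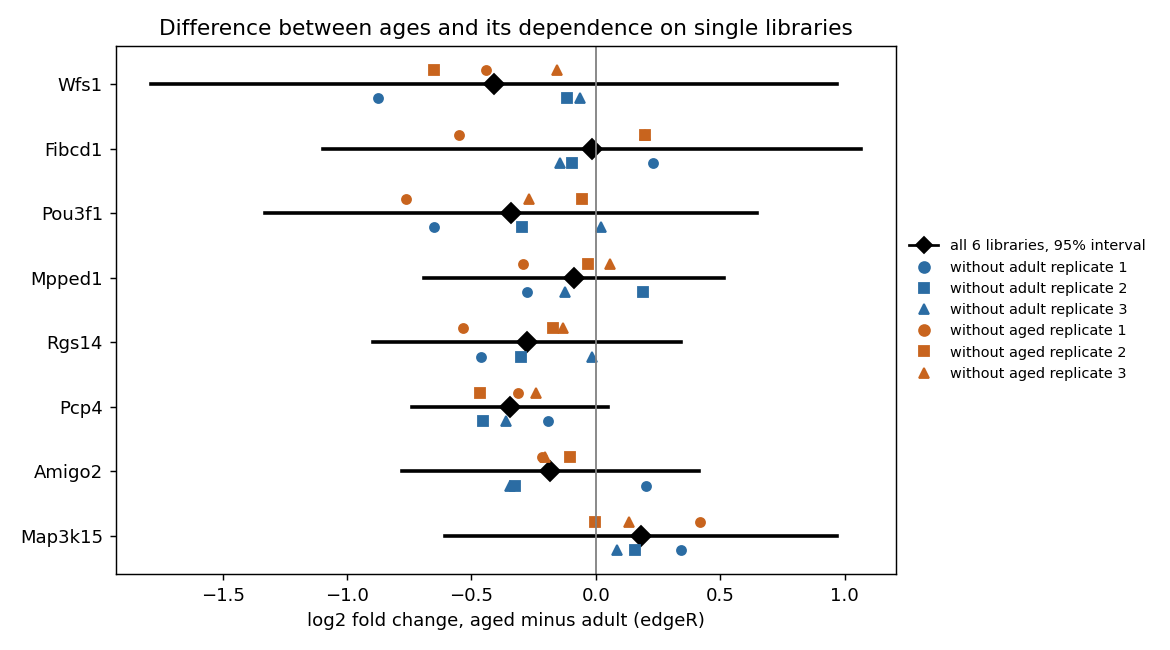
Log2 fold change, aged minus adult, of each gene from edgeR (black diamond) with its 95% interval (line), and the same value with 1 library left out (blue for an adult and orange for an aged library; circle, square and triangle for replicates 1, 2 and 3). Each interval includes 0, and the point without adult replicate 1 is the lowest for Wfs1 (-0.88) and the highest for Amigo2 (0.20).

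The CA1 and CA2 genes did not form a single block across the libraries. Centred on each gene's mean log2 CPM, the average of the 4 CA1 genes was -0.63, 0.43 and 0.40 in adult and 0.41, -0.23 and -0.38 in aged replicates 1 to 3, placing adult replicate 1 at the bottom. The average of the 4 CA2 genes was 0.23, -0.06 and 0.05 in adult and -0.05, -0.01 and -0.16 in aged replicates, placing the same library at the top. Wfs1 weighed most in the CA1 placement, at -1.77 in that library. Pou3f1 (-0.68) and Mpped1 (-0.42) were also below their own means there, while Fibcd1, which had low counts, was at 0.36. The average of the other 3 CA1 genes, taken after these values had been seen, was -0.25 in adult replicate 1 and lowest in aged replicate 2, at -0.44. The CA2 average was narrow because its members went different ways. Rgs14 was below its own mean in adult replicate 1 (-0.31), whereas Pcp4 (0.43) and Amigo2 (0.66) were above theirs.

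Likeness between 2 genes was measured as the root mean square difference of their centred log2 CPM over the 6 libraries, where 0 is identical. Over the 28 pairs of the 8 genes it ran from 0.29 for Pcp4 and Amigo2 to 1.25 for Wfs1 and Amigo2. Rgs14, a CA2 gene, lay nearer to the CA1 genes Mpped1 (0.30) and Pou3f1 (0.33) than to the CA2 genes Pcp4 (0.45), Amigo2 (0.59) or Map3k15 (0.63). Of the remaining CA1 genes, Fibcd1 (0.44) lay about as far from Rgs14 as Pcp4 did. Wfs1 (0.76) lay farther from it than any CA2 gene. Wfs1 lay at least 0.74 from every other gene, the nearest being Mpped1. Part of this distance is the size of its own swings.

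By the same measure, among 9699 other named genes that averaged 10 CPM or more, those nearest the CA1 average were Dstn (0.12), Kcnh7 (0.14), Chst15 (0.14), Fndc5 (0.15) and Cdk5r2 (0.16). Dstn, which encodes the actin-depolymerising protein destrin, stood at 52.4, 101.0 and 108.6 CPM in adult replicates 1 to 3 and at 97.7, 76.2 and 69.6 CPM in the aged ones. Nearest the CA2 average were Stambp (0.02), Kcnn2 (0.03), Rpe (0.03), Dph3 (0.04) and Rap1b (0.04). That average moves little, so any gene with small changes lies near it. No gene lay close to Wfs1 on its own, the nearest being Wdr54 (0.43) and Cyp26b1 (0.52), a comparison chosen after the values of Wfs1 had been seen. Cyp26b1, which encodes an enzyme that breaks down retinoic acid, stood at 3.55, 14.2 and 11.3 CPM in adult replicates 1 to 3 and at 17.7, 9.08 and 6.20 CPM in the aged ones.

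Because Wfs1 is strongest in dorsal CA1, genes known from the ventral hippocampus were read in the same libraries. All 6 of them (Trhr, Nr2f2, Dcn, Htr2c, Etv1 and Grp) were tested, 0 were called, and all 6 had a higher fitted value in aged rats (median log2 fold change 0.29). Their summed level was 456.4, 270.5 and 119.0 CPM in the adult and 339.9, 392.7 and 296.5 CPM in the aged replicates 1 to 3. Among the adults, the library lowest in Wfs1 was thus the highest in ventral genes. Adult replicates 2 and 3 were close to each other in Wfs1 (223.7 and 232.9 CPM), although their ventral sums differed. Trhr, the receptor for thyrotropin-releasing hormone, stood at 15.4, 3.16 and 3.27 CPM in adult replicates 1 to 3. Nr2f2, a nuclear receptor also called COUP-TFII, stood at 79.6, 38.6 and 14.5 CPM. Among the aged libraries the order was different, with aged replicate 2 highest in both Wfs1 (162.3 CPM) and the ventral sum. Htr2c, the highest of the 6 ventral genes in adult replicate 1 (169.3 CPM), is also made by choroid plexus. Dcn is also made by meningeal fibroblasts, and adult replicate 1 was the library with high choroid plexus transcripts. The part of dissection level, or of choroid plexus tissue, in the Wfs1 values was not tested.

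**Figure D4:**
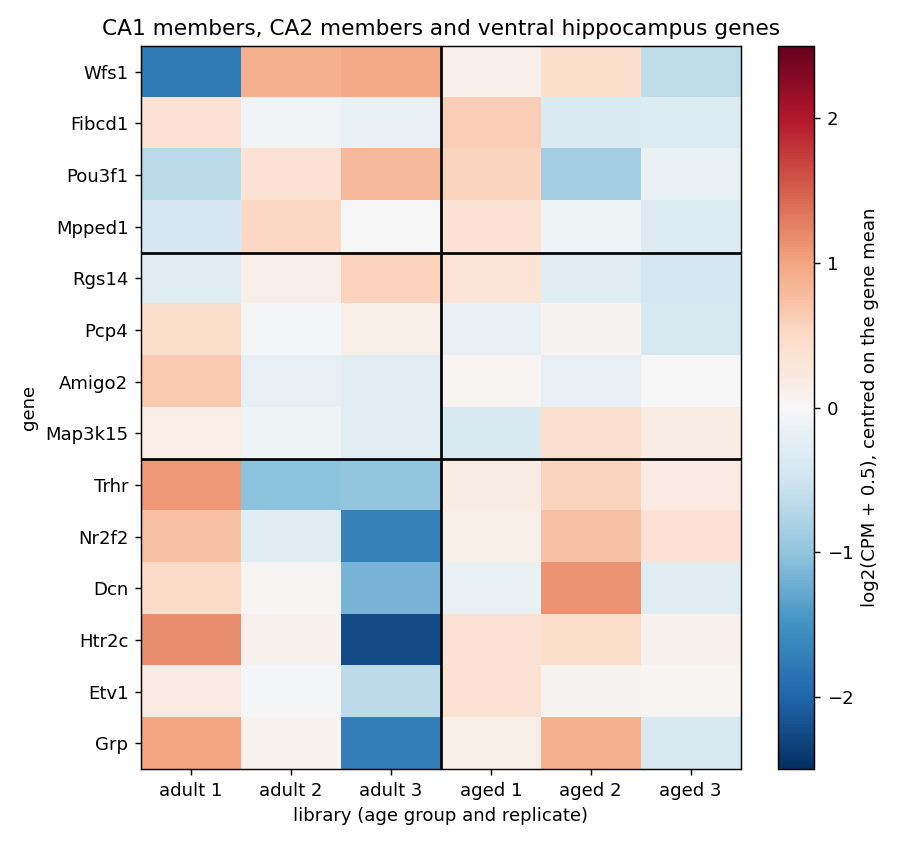
Log2(CPM + 0.5) of each gene, centred on its mean over the 6 libraries (red above, blue below), for the 4 CA1 genes, the 4 CA2 genes and 6 ventral hippocampus genes, with a line between the ages. In adult replicate 1 Wfs1 is at its lowest (-1.77) and Trhr and Nr2f2 are high, and in adult replicate 3 Wfs1 is at its highest (0.95) and the ventral genes are low. Wfs1 is nearly as high in adult replicate 2 (0.89).

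Other genes known from the same fields were read beside the 8. Of 6 symbols listed for CA1, 5 were in the table and 4 were tested: 3 were higher and 1 lower in fitted value in aged rats, 0 were called, and the median log2 fold change was 0.43. Tyro3, a receptor tyrosine kinase, was at 156.6, 251.3 and 160.3 CPM in adult replicates 1 to 3 and at 214.3, 198.5 and 176.7 CPM in the aged ones. It was thus lowest in the library lowest in Wfs1, but by a far smaller margin. The ratio of Wfs1 to Tyro3 within a library ran from 0.223 in adult replicate 1 to 1.45 in adult replicate 3.

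Nov, also called Ccn3, encodes a secreted matrix-associated protein and had the smallest p of this list. It stood at 55.6, 114.0 and 66.8 CPM in adult replicates 1 to 3 and at 182.1, 193.1 and 87.9 CPM in the aged ones, so that aged replicate 3 lay inside the adult range. Its log2 fold change was 0.97 ± 0.35 with an unadjusted p of 0.0234 (edgeR), and it was not called over all genes. Spink8, a CA1 transcript in rodents, had 1 to 10 reads a library and was not tested.

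Of 9 further genes listed for CA2, 7 were tested, 2 higher and 5 lower in fitted value in aged rats, 0 called, with a median log2 fold change of -0.02. Necab2, which encodes a neuronal calcium-binding protein, stood at 158.7, 163.7 and 204.3 CPM in adult replicates 1 to 3 and at 220.4, 255.4 and 203.1 CPM in the aged ones. The groups overlapped by a single pair, adult replicate 3 and aged replicate 3, and the log2 fold change was 0.37 ± 0.15 (edgeR unadjusted p = 0.0382, not called). Gsto1, a glutathione transferase, averaged 118.9 ± 26.9 and 110.1 ± 16.9 CPM. Avpr1b, the vasopressin receptor known from CA2, had at most 1 read in any library, and Vit had 2 to 16 reads, so neither was tested.

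The neighbouring fields gave a frame for these values. Of 9 CA3 genes tested, 5 were higher and 4 lower in fitted value in aged rats (median 0.02). Of 8 dentate granule cell genes all were lower (median -0.35), and 0 of either list were called or passed an unadjusted p under 0.05. The dentate genes summed to 700.6 CPM in adult replicate 3 and to between 248.8 and 378.9 CPM in the other 5 libraries. That library was also the highest of the 6 for Wfs1, Rgs14 and Pou3f1. It was the highest as well for the summed CA3 genes (617.9 CPM) and excitatory neuron genes (6476 CPM). Of 5 subiculum and deep cortex genes 3 were higher and 2 lower (median 0.12), and of 5 neocortex genes 1 was higher and 4 lower (median -0.17), with 0 called. Summed excitatory neuron genes had an adult mean of 5216 ± 1138 CPM and an aged mean of 4526 ± 727 CPM. Nrgn held the largest part of that sum, with means of 3198 (adult) and 2460 CPM (aged). Of the 6 genes summed, 2 were higher and 4 lower in fitted value (median -0.10). The vesicular glutamate transporter Slc17a7 was among the higher ones, with means of 971.7 ± 253.3 (adult) and 1027 ± 291 CPM (aged). The ratio of Wfs1 to Slc17a7 was 0.0514, 0.205 and 0.204 in adult and 0.0983, 0.213 and 0.0781 in aged replicates 1 to 3. Adult replicate 1 thus remained the lowest when Wfs1 was set against a transcript of glutamatergic neurons as a whole.

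The partner and relative lists, which held none for Fibcd1 and only genes of the same family for Pou3f1 and Mpped1, also gave no call. Rgs14 binds inhibitory G protein alpha subunits, Hras and Rap proteins. Of 9 such partners and relatives 4 were higher and 5 lower in fitted value in aged rats (median -0.05), with Hras at 180.7 ± 28.8 and 163.5 ± 23.4 CPM (adult and aged means, SD, n = 3, in this order from here on) and Gnai1 at 102.7 ± 21.4 and 122.6 ± 28.5 CPM. Pcp4 modulates calmodulin. Of its 6 partners and relatives 3 were higher and 3 lower (median 0.01), with Calm3, one of the calmodulin genes, at 998.2 ± 215.4 and 997.1 ± 195.5 CPM.

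Loss of wolframin is known to stress the endoplasmic reticulum. Of 8 genes of that response and of wolframin's surroundings 3 were higher and 5 lower in fitted value (median -0.0068). Hspa5, the main chaperone of that compartment, averaged 452.1 ± 49.8 and 458.8 ± 54.6 CPM. Atp1b1, a sodium pump subunit, averaged 2480 ± 329 and 2468 ± 311 CPM.

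Of 9 genes of the kinase cascade of Map3k15, which are its relatives Map3k5 and Map3k6, their regulator Txn1 and kinases below them, 6 were higher and 3 lower in fitted value (median 0.18), with Mapk8 at 107.2 ± 13.6 and 121.2 ± 6.04 CPM and Mapk14 at 88.7 ± 22.2 and 84.1 ± 2.35 CPM. Map2k3 had the smallest p of that list, at 0.410, 0.253 and 1.07 CPM in the adult and at 1.33, 1.29 and 1.63 CPM in the aged libraries, a separation of the groups at low counts (edgeR unadjusted p = 0.0485, not called). Amigo2's relative Amigo1 averaged 100.2 ± 9.31 and 103.9 ± 5.90 CPM. The other POU factors of the Pou3f1 class were lower in fitted value in all 3 cases (median -0.19), with Pou3f3 at 63.1 ± 6.11 and 55.4 ± 8.10 CPM. Mpped2 averaged 63.3 ± 30.9 and 45.6 ± 5.84 CPM, with adult replicate 3 alone at 99.0 CPM.

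Several libraries held transcripts of other tissues. Choroid plexus genes summed to 2152 CPM in adult replicate 1 and to between 12.3 and 77.3 CPM elsewhere, liver genes to between 32.5 and 35.6 CPM in replicate 1 of both ages and to between 225.0 and 574.4 CPM elsewhere, and skeletal muscle genes to between 35.3 and 306.6 CPM. Oligodendrocyte genes were lower in fitted value in aged rats in 8 of 8 cases, with a median log2 fold change of -0.74. Of these 0 were called, 7 had an unadjusted p under 0.05 by edgeR (against 3.45% of all genes) and 5 had groups that did not overlap (against 7.56%). Their sum was 17610, 11962 and 11691 CPM in adult replicates 1 to 3 and 6895, 7282 and 9250.0 CPM in the aged ones, so that every adult library lay above every aged one. Of the regions that also make Pcp4, striatal genes summed to between 110.0 and 212.1 CPM. The sum was lowest in adult replicate 1, where Pcp4 was highest, and highest in aged replicate 2, where Pcp4 was the highest of the aged libraries. In adult replicate 2, where Pcp4 was the lowest of the adults, it was 183.9 CPM. Most of it was Ppp1r1b, with an adult mean of 104.6 ± 22.6 CPM and an aged mean of 107.2 ± 31.6 CPM. The thalamic genes summed to between 33.3 and 54.4 CPM and the neocortex genes to between 182.6 and 266.1 CPM. Otx2 of the choroid plexus list and Npy of the interneuron list had 0 reads in all 6 libraries. Yet Ttr of the first list reached 2076 CPM in adult replicate 1, and Sst of the second ran from 140.4 to 336.2 CPM. Whether the 0 values reflect absent transcripts or the way reads were assigned to genes was not tested. The part of these tissues in the values of the 8 genes was not tested. The values given without adult replicate 1 do not test it, because they leave out everything else about that rat as well.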

How the data were processed

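Ventral hippocampus RNA of 3 adult and 3 aged male rats was analysed, 1 library per animal. The authors deposited raw read counts per gene symbol and a second table of FPKM. Each FPKM was found to equal the count divided by 1 length per gene and by the library total, so the deposited FPKM values are the same measurement. The genome build was Rnor_6.0, per the submitters' processing notes, and the aligner, counting program and strand setting are not given in the sources used. Totals per library ran from 12476758 to 15689921 counts.

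Genes were filtered by filterByExpr, scaled by TMM and fitted with age as the only term (edgeR 4.0.16, R 4.3.3; quasi-likelihood F test, two-sided, Benjamini-Hochberg over 14588 genes, threshold 0.05 on the adjusted p). The F statistic gave the standard errors and 95% intervals of the log2 fold changes. Alternatives used limma 3.58.1 and DESeq2 1.42.0. Scripts were tested on simulated counts. The 8 genes and the other lists were chosen with earlier results of these data known. All 8 genes are given. Of other lists, the text names the 2 genes highest in CPM and up to 3 with the smallest unadjusted p under 0.05, and further ones for their values, except that some genes the rule would name are not reported here; genes nearest a profile were the 5 with the smallest root mean square difference. Gene positions, overlaps and promoters are from RefSeq, build GRCr8, which differs from the authors' build and was matched by symbol for all 8 genes.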

Additional observations from a re-analysis of the deposited data

How the results depend on the processing

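None of the 8 genes was called in any of the 20 alternatives. Over all genes the count of 0 became 54 with scaling to excitatory neuron genes, 31 with DESeq2 and 2 with limma on log2(FPKM + 1), and lay between 0 and 1 when 1 library was left out; the cause was not tested. The excitatory scaling used the summed counts of 6 genes, of which Nrgn held the largest part. It moved the median log2 fold change of all genes from -0.0022 to 0.18, and the fitted value of 5 of the 8 genes was then lower in aged rats. The median of the 8 genes moved from -0.23 to -0.06 with that scaling, -0.10 with limma-voom, between -0.08 and -0.07 with limma on FPKM, -0.12 with the replicate number as a block, and between -0.38 and -0.08 with 1 library left out. Wfs1, Rgs14 and Pcp4 kept their direction in all 20, of which the threshold of 0.1 on the adjusted p and the robust fit left their fold changes as they were. Their values nearest 0 were -0.036 for Wfs1 (limma on log2(FPKM + 0.1)), -0.016 for Rgs14 (without adult replicate 3) and -0.14 for Pcp4 (excitatory scaling). Directions reversed for Fibcd1 (0.088) and Mpped1 (0.032) with excitatory scaling. With 1 library left out the values ran from -0.55 to 0.23 for Fibcd1 (above 0 without adult replicate 1, and at 0.20 without aged replicate 2 and again without aged replicate 3), from -0.29 to 0.19 for Mpped1 (above 0 without adult replicate 2 or, at 0.058, aged replicate 3) and from -0.76 to 0.019 for Pou3f1 (above 0 without adult replicate 3). They ran from -0.34 to 0.20 for Amigo2 (above 0 without adult replicate 1) and from -0.0043 to 0.42 for Map3k15 (below 0 without aged replicate 2). Over all genes tested, libraries of equal replicate number did not deviate alike (correlations of deviations -0.20, -0.13 and 0.05 for numbers 1 to 3). For unequal numbers the correlations ran from -0.13 to 0.24. Liver genes, however, were low in replicate 1 of both ages. With the replicate number as a block 0 genes were called, 0 of them among the 8, with Wfs1 at -0.11. Low reads limit Fibcd1 and Map3k15, and the spread between animals limits Wfs1, whose standard error of 0.60 compares with a median of 0.19 over all genes.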
